A study of Mus musculus with 8 samples.

Results

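The genes described here are 29 genes of the inhibitory interneuron lineage and of GABA synthesis, measured in mouse cortex taken at embryonic day 18.5. They were chosen by name and comprise enzymes and a transporter of the transmitter GABA, transcription factors of the ganglionic eminences, markers of interneuron subtypes and receptors that guide migration. Affymetrix exon arrays, which carry many probe sets along each gene, were hybridised with total RNA of 4 wild type and 4 Ptbp2 knockout animals, each array being a biological replicate of its own. Ptbp2 is an RNA-binding protein of neurons that represses alternative exons. Animals of both groups had a mixed CD1 and C57BL/6 background, and the knockout allele is not given in the sources used here. Of the 29 genes, 28 had at least 4 probe sets with a mean at or above the median probe set of the table (a log2 signal of 6.84) and were tested among 12960 genes. These 29 genes had 434 probe sets, of which 385 passed that signal filter. A gene's level on an array is the median log2 signal of its retained probe sets. Only Nkx2-1, with 3 retained probe sets of 8, was not tested.

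Cortical interneurons are born outside the cortex, in the medial, caudal and lateral ganglionic eminences of the ventral forebrain, and migrate tangentially into the cortical plate. Dlx homeodomain factors are expressed across these eminences. Nkx2-1 and then Lhx6 specify cells of the medial eminence, many of which later make somatostatin, while Prox1, Sp8 and Nr2f2 are typical of cells from the caudal eminence. Projection neurons of the striatum come from the lateral eminence and share the GABA enzymes and several of the Dlx factors with interneurons. In RNA from whole tissue, fewer cells of a type and less RNA per cell cannot be told apart.

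The median log2 signal of an array ranged from 6.82 to 6.93, and identical arrays were not found. The targeted gene, Ptbp2, averaged 11.20 ± 0.14 over the wild type and 5.95 ± 0.34 over the knockout arrays (SD, n = 4 each), which fits the labels. The 9 tested markers of cortical glutamatergic neurons had a mean level between 9.81 and 10.08 in wild type and between 9.78 and 10.06 in knockout arrays. Lists for striatal projection neurons (8.98 to 9.28 in wild type) and choroid plexus (8.83 to 8.94) also gave signal. In knockout arrays the striatal mean lay between 8.54 and 8.93, and the choroid plexus mean between 7.36 (knockout 2) and 9.03. Ttr, a choroid plexus marker, was at 9.36 in knockout 2 and between 13.18 and 13.38 in every other array, so choroid plexus signal differed between arrays. No other tissue was measured, so these levels do not show how pure the cortex was. Wild type 3 and knockout 3 were the outermost arrays on the first 2 principal components of the genes tested.

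No interneuron or GABA gene passed the test in level. With limma and Benjamini-Hochberg adjustment over all genes, 0 of 28 had an adjusted p below 0.05, against 15 of 12960 genes tested (0.116%), and the adjusted p of the 28 lay between 0.751 and 0.996. At an unadjusted p below 0.05, 3 of 28 were lower in knockout cortex (Dlx5, Etv1 and Calb1) and 0 higher, beside 3.79% of all genes lower and 2.7% higher. Every knockout array lay below every wild type array in 1 of 28, beside 1.97% of all genes, and above in 0 of 28, beside 1.68%. The fitted log2 fold change was below 0 in 20 of 28, beside 49% of all genes, and the median over the 28 was -0.078, beside 0.0027 over all genes. Without knockout 3 it was below 0 in 18 of 28 with a median of -0.051, and without wild type 1 in 18 of 28 with a median of -0.050. The 95% interval of the limma fit lay within 0.5 of 0 on the log2 scale in 25 of 28 genes, and within 1 of 0, a doubling or halving, in all 28. The exceptions to the narrower bound were Dlx5, Lhx8 and Calb1.

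**Figure D1:**
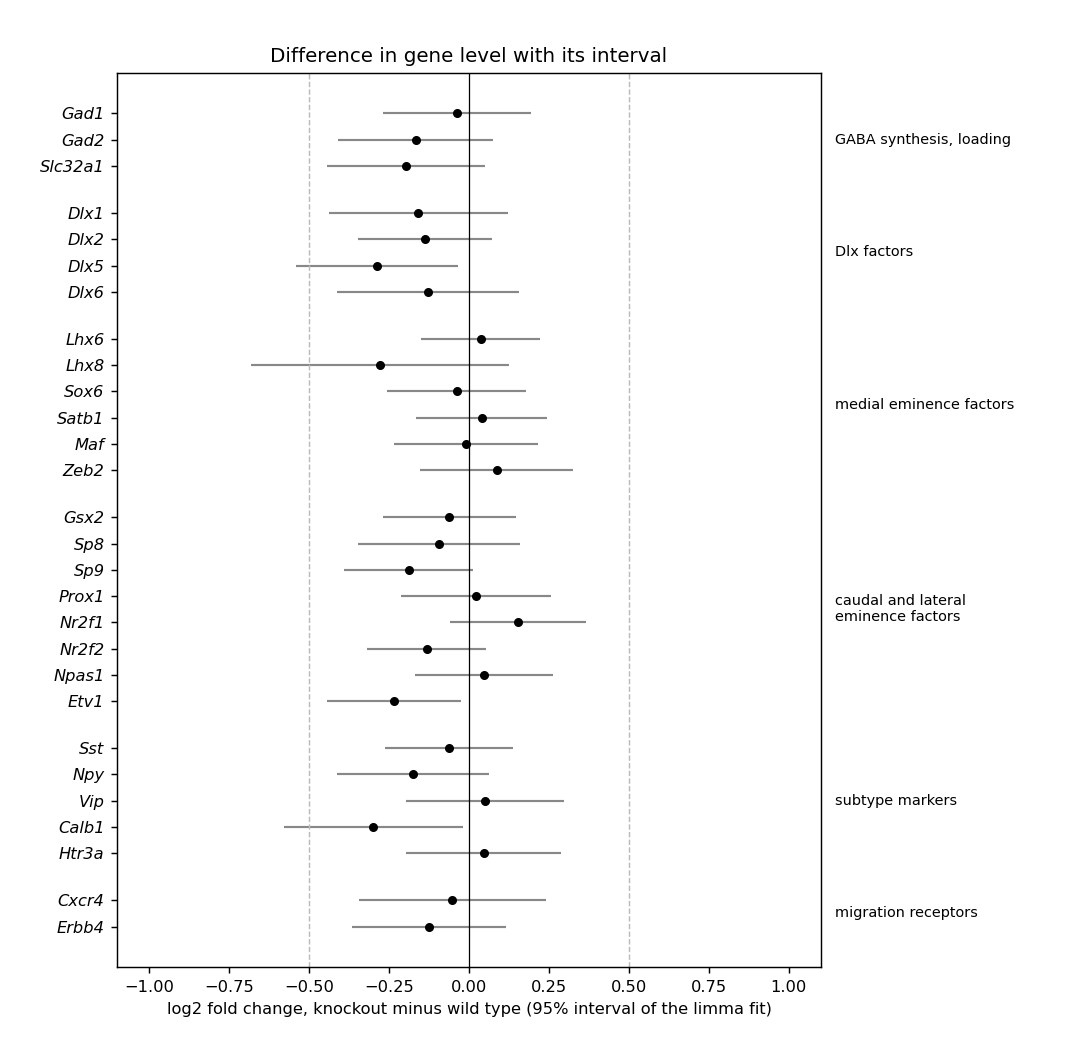
Log2 fold change of each tested gene, knockout minus wild type, with the 95% interval of the limma fit (4 arrays a group), grouped by role; dashed lines mark 0.5 and -0.5. The intervals of Dlx5, Etv1 and Calb1 exclude 0 before adjustment, and the widest interval is that of Lhx8.

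The genes of GABA synthesis and vesicle loading were compared first. Gad1 and Gad2 encode the glutamate decarboxylases that make GABA, and Slc32a1 the transporter that loads it into synaptic vesicles. The levels of Gad1 were 10.46, 10.30, 10.16 and 10.24 in wild type 1 to 4 and 10.33, 10.34, 9.97 and 10.37 in knockout 1 to 4. Knockout 3 lay below every other array, while the other knockout arrays lay among the wild type arrays. The fitted difference of Gad1 was -0.037 (SE 0.11, limma adjusted p = 0.981), with an interval from -0.27 to 0.19 and a sign that turned without knockout 3 (0.058), without wild type 1 (0.020) and under array weights (0.019). Gad2 was at 10.40, 10.16, 10.21 and 10.18 in wild type and at 10.11, 10.15, 9.74 and 10.28 in knockout arrays. Again knockout 3 was lowest, and knockout 4 lay above every wild type array but 1. The log2 fold change of Gad2 was -0.17 (SE 0.11, adjusted p = 0.880), and -0.057 without knockout 3. All 22 retained probe sets of Gad2 were lower on average in knockout cortex, and 19 of 25 of Gad1, although the probe sets of a gene share the same 8 arrays. The same limit holds for the probe set counts of the genes below, and no share over all genes is given beside them. One-sided counts also occurred in the other direction, with 30 of 34 probe sets higher in Zeb2, 15 of 20 in Satb1 and 10 of 12 in Nr2f1. Slc32a1 was at 9.50, 9.24, 9.15 and 9.31 in wild type and at 9.31, 9.15, 8.79 and 9.16 in knockout arrays. Its groups overlapped outside knockout 3, and its log2 fold change was -0.20 (SE 0.12, adjusted p = 0.831), and -0.092 without that array.

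Upstream sequences are shown for Gad1 and Slc32a1, picked among the genes of GABA synthesis and loading because they hold an E-box that Gad2 lacks in this window. Gad2, Dlx1 and Lhx8 have no such match in their listed promoters, and Dlx5, Dlx6, Calb1, Maf and Htr3a have no listed promoter. Any relation of the match to gene levels was not tested. The printed sequences are the 250 bases before the RefSeq start in GRCm38.p6, given 5′ to 3′ on the gene's strand, at chr2:70561879-70562128 (+) and chr2:158610508-158610757 (+). Capitals mark CACCTG, the E-box bound by Zeb factors, whose first base lies 104 bases before the start of Gad1 and 233 before that of Slc32a1.
Gad1: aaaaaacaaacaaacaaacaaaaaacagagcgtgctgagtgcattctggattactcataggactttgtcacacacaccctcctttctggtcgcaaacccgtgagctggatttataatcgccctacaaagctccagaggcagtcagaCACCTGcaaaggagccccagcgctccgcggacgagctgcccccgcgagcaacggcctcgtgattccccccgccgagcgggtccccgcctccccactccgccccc
Slc32a1: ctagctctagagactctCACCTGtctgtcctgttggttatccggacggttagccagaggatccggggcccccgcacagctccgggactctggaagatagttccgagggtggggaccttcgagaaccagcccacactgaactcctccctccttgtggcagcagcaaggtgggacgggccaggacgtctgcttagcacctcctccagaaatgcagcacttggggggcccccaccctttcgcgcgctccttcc
On either strand, CACCTG occurred in the upstream 250 bases of 17.2% of 32851 RefSeq promoters, and in 5 of the 43 promoters listed for 24 of the 29 genes (Gad1, Slc32a1, Nkx2-1, Satb1 and Sox6). The homeodomain core TAATTA, which reads the same on both strands, occurred in 4.84% of all promoters and in 1 of the 43, a promoter of Sp8. A match is a description of letters and not of a bound site.

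The Dlx homeodomain factors, which act in the eminences upstream of Gad1 and Gad2, had log2 fold changes between -0.29 and -0.13 in 4 of 4. Dlx1 and Dlx2 are neighbours in the order of protein-coding genes on chromosome 2, as are Dlx5 and Dlx6 on chromosome 6. Dlx5 was at 9.74, 9.88, 9.51 and 9.59 in wild type 1 to 4 and at 9.52, 9.46, 9.06 and 9.54 in knockout 1 to 4. Every knockout array lay below wild type 1, 2 and 4, but knockout 1 and 4 lay just above wild type 3, so the groups overlapped. The fitted difference of Dlx5 was -0.29 (SE 0.12, unadjusted p = 0.028, adjusted p = 0.751), with 10 of 11 probe sets lower, and a two-sided exact permutation test gave it 0.0857. Without knockout 3 the value was -0.18. Dlx1 was at 10.44, 10.55, 10.10 and 10.38 in wild type and at 10.41, 10.31, 9.81 and 10.31 in knockout arrays. Dlx6, measured by 4 probe sets, was at 8.45, 8.29, 8.07 and 8.23 in wild type and at 8.26, 8.09, 7.73 and 8.44 in knockout arrays. In both genes knockout 3 was lowest and the other 7 arrays overlapped. Their log2 fold changes were -0.16 (SE 0.13, adjusted p = 0.915) and -0.13 (SE 0.13, adjusted p = 0.938), and without knockout 3 they were -0.025 and 0.0045. Dlx2 differed in that knockout 4 (8.83) and not knockout 3 (8.88) was lowest, with wild type arrays between 8.95 and 9.21 and a fitted difference of -0.14 (SE 0.098, adjusted p = 0.884).

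Among factors of the medial ganglionic eminence, 3 of 6 tested had a log2 fold change below 0 and 3 above, with a median of 0.014 that ran from -0.0081 to 0.054 with 1 array left out. Lhx6, the LIM homeodomain factor that interneurons of this origin keep after leaving the eminence, was at 9.60, 9.57, 9.46 and 9.50 in wild type and at 9.63, 9.59, 9.61 and 9.45 in knockout arrays. The groups overlapped fully and knockout 3 was among the higher arrays. Its log2 fold change was 0.037 (SE 0.087, adjusted p = 0.978), with an interval from -0.15 to 0.22. Lhx8, a LIM homeodomain factor of the medial eminence and of cholinergic neurons of the ventral forebrain, was at 8.85, 9.20, 8.92 and 9.05 in wild type and at 8.96, 9.05, 7.94 and 8.96 in knockout arrays. Knockout 3 lay far below the other knockout arrays, with a difference of -1.054 from their mean, and the rest overlapped with wild type. The fitted difference of Lhx8 was -0.28 (SE 0.19, adjusted p = 0.880), and of -0.014 without knockout 3.

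Nkx2-1, the homeodomain factor that specifies the medial eminence, had a median over its 3 retained probe sets of 8.90, 8.59, 8.53 and 8.79 in wild type and 8.60, 8.34, 7.59 and 8.80 in knockout arrays. Knockout 3 was again lowest, and the difference of -0.37 had a two-sided exact permutation p of 0.286. It was -0.12 without knockout 3. Over all 8 probe sets it was -0.11 (exact p = 0.714), and 0.032 without knockout 3. Sox6 and Satb1, which act after Lhx6 in these interneurons, had log2 fold changes of -0.039 (SE 0.10) and 0.040 (SE 0.096). Maf, a leucine zipper factor of the same lineage, was at -0.0096 (SE 0.11), and Zeb2, a zinc finger repressor that directs these cells to the cortex, at 0.087 (SE 0.11). None of these 4 passed (adjusted p between 0.956 and 0.996), and the signs of Sox6, Satb1, Maf and Zeb2 each turned under at least 1 alternative. In Zeb2 and Satb1 knockout 3 was the highest of the 8 arrays, at 9.76 and 10.56.

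**Figure D2:**
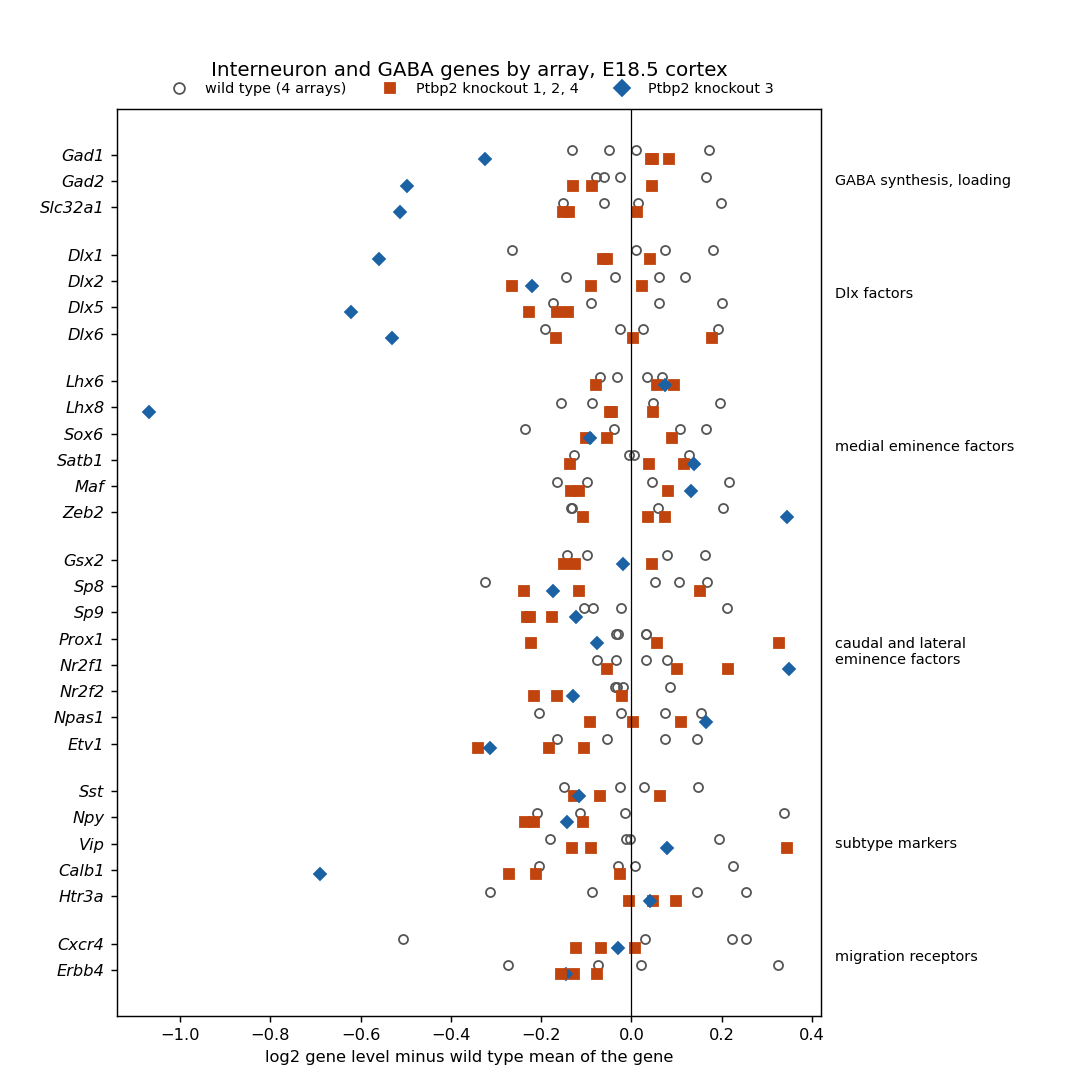
Log2 level of each tested gene on each array minus the gene's wild type mean, grouped by role; open circles are the 4 wild type arrays, squares knockout 1, 2 and 4, and diamonds knockout 3. Knockout 3 lies left of all other arrays in Gad1, Gad2, Slc32a1, Dlx1, Dlx5, Dlx6, Lhx8 and Calb1, and is not the lowest array in the other 20 genes.

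Factors of the caudal and lateral eminences had a median log2 fold change of -0.077, with 5 of 8 below 0. Sp9, a zinc finger factor of the lateral and caudal eminences, was at 7.91, 7.97, 7.89 and 8.21 in wild type and at 7.76, 7.77, 7.87 and 7.82 in knockout arrays. It was the only one of the 28 genes in which every knockout array lay below every wild type array, and the closest pair, wild type 3 and knockout 3, stood at 7.89 and 7.87. The log2 fold change was -0.19 (SE 0.095, adjusted p = 0.791), which was -0.12 without wild type 4 and -0.32 under array weights. A two-sided exact permutation test gave it 0.0286, which is the lowest p this design can reach. Any gene whose groups do not overlap has this p, so it restates the separation and adds nothing to it. Etv1, an ETS factor also abundant in deep layer cortical neurons, was at 10.04, 9.80, 10.11 and 9.91 in wild type and at 9.78, 9.62, 9.65 and 9.85 in knockout arrays. Wild type 2 lay within the knockout range and the other wild type arrays above it. Its log2 fold change was -0.24 (SE 0.0985, unadjusted p = 0.030, adjusted p = 0.751), with 18 of 20 probe sets lower.

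The nuclear receptors Nr2f1 and Nr2f2, factors of the caudal eminence and of regional identity in cortex, differed in sign. Nr2f1 was at 9.87, 9.71, 9.76 and 9.82 in wild type and at 9.74, 9.89, 10.14 and 10.01 in knockout arrays. Knockout 2, 3 and 4 lay above every wild type array and knockout 1 among them, and the log2 fold change was 0.15 (SE 0.0999, adjusted p = 0.864), and 0.087 without knockout 3. Nr2f2 was at 9.23, 9.25, 9.23 and 9.35 in wild type and at 9.24, 9.10, 9.13 and 9.05 in knockout arrays. Only knockout 1 reached the wild type range, and the log2 fold change was -0.13 (SE 0.088, adjusted p = 0.865). Of the 16 retained probe sets of Nr2f2, however, 12 were higher on average in knockout cortex and 4 lower, and with the mean of probe sets in place of their median the value was 0.066, so the sign of this gene depended on that choice. Sp8 (-0.093, SE 0.12), Gsx2, a patterning factor of the lateral eminence (-0.061, SE 0.098), Npas1, a basic helix-loop-helix factor (0.047, SE 0.10), and Prox1, a homeodomain factor of caudal interneurons (0.021, SE 0.11), had adjusted p between 0.956 and 0.992.

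The subtype markers had a median log2 fold change of -0.063, which was -0.014 without wild type 1. A signal filter at the 75th percentile left only Npy and Calb1 of these markers and put the median at -0.24. Sst, the somatostatin gene, was at 10.69, 10.57, 10.39 and 10.52 in wild type and at 10.41, 10.47, 10.42 and 10.60 in knockout arrays. All 4 of its probe sets were lower on average, yet the arrays of the groups were interleaved, and the log2 fold change was -0.063 (SE 0.094, adjusted p = 0.965) with an interval from -0.26 to 0.14, and -0.014 without wild type 1. Its upstream 250 bases are shown for the well-known cAMP response element TGACGTCA, in capitals, at chr16:23890845-23891094 (-) of GRCm38.p6. The element, which reads the same on both strands and begins 48 bases before the start, was found in 1 of the 43 promoters of these genes and in 1.55% of all promoters.
Sst: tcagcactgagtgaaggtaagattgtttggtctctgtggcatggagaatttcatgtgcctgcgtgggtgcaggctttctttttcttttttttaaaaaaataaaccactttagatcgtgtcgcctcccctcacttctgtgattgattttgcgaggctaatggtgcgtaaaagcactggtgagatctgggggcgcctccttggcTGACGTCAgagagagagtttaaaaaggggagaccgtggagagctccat
Npy, the neuropeptide Y gene, was at 11.31, 10.76, 10.86 and 10.96 in wild type and at 10.74, 10.76, 10.83 and 10.87 in knockout arrays. Wild type 1 stood above the other 7 arrays, and the log2 fold change of -0.18 (SE 0.11, adjusted p = 0.854) was -0.063 without it. Calb1, the calcium-binding protein calbindin of interneurons and of striatal projection neurons, was at 9.48, 9.26, 9.05 and 9.22 in wild type and at 8.98, 9.04, 8.56 and 9.23 in knockout arrays. Knockout 1 to 3 lay below every wild type array and knockout 4 within their range. Its log2 fold change was -0.30 (SE 0.13, unadjusted p = 0.038, adjusted p = 0.751), with 14 of 14 probe sets lower, and -0.17 without knockout 3. Vip, the vasoactive intestinal peptide gene (0.051, SE 0.12), had 4 of 13 probe sets above the signal filter, and its sign turned without wild type 1 (-0.0094) or knockout 2 (-0.048). Htr3a, a serotonin receptor subunit of caudal interneurons (0.045, SE 0.11), also turned in sign, to -0.059 without wild type 3. Neither Vip nor Htr3a passed (adjusted p = 0.978 each).

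The receptors of migrating interneurons varied more among wild type than among knockout arrays (SD 0.35 against 0.056 for Cxcr4 and 0.25 against 0.035 for Erbb4). This was not particular to them. Htr3a (0.25 against 0.043) and Npy (0.24 against 0.061) did so too, while Lhx8 (0.16 against 0.53) and Prox1 (0.037 against 0.23) did the reverse. Over all genes the median deviation lay between -0.084 and 0.096 in wild type and between -0.023 and 0.040 in knockout arrays. Cxcr4, the receptor that holds migrating cells in their streams, lay between 10.05 (wild type 3) and 10.80 in wild type and between 10.43 and 10.56 in knockout arrays. Its log2 fold change was -0.053 (SE 0.14, adjusted p = 0.979), and 0.032 without wild type 1. Erbb4, the neuregulin receptor, lay between 9.77 and 10.37 in wild type and between 9.89 and 9.97 in knockout arrays, with a fitted difference of -0.13 (SE 0.11, adjusted p = 0.923) that was -0.017 without wild type 3 and -0.22 without wild type 2. In both genes all knockout arrays lay within the wild type range.

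Knockout 3 recurs in these values. It was the lowest of the 8 arrays in 8 of 28 genes, beside 16% of all genes tested, and these were 3 of 3 genes of GABA synthesis and loading, 3 of 4 Dlx factors, 1 of 6 medial eminence factors, 1 of 5 subtype markers and none of the 10 others. The median deviation from the wild type mean in knockout 3 was -0.50 for GABA synthesis and loading and -0.55 for the Dlx factors, against 0.10 for medial eminence factors and -0.0034 for all genes. In knockout 1, 2 and 4 it lay between -0.088 and 0.045 for GABA synthesis and loading and between -0.13 and 0.013 for the Dlx factors, within the range of the wild type arrays. For medial eminence factors the mean level, unlike the median deviation, was lowest in knockout 3 (9.23, beside 9.24 to 9.34 in the other arrays). In that list Lhx8 was lowest there (7.94), as was Nkx2-1 (7.59), which was not tested and is not in these values. Wild type 1 was the highest array in 10 of 28 genes, beside 32.3% of all genes.

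**Figure D3:**
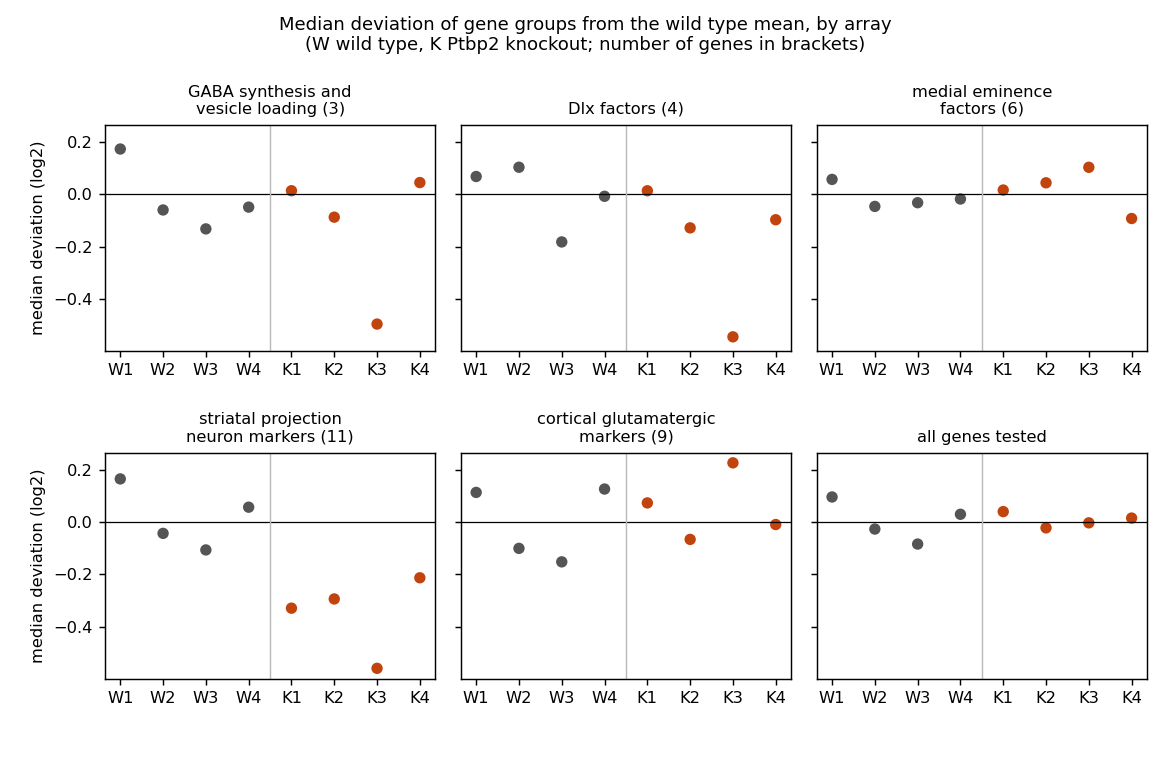
Median deviation of 6 gene groups from the wild type mean of each gene, by array, on the log2 scale; each point is 1 array (W wild type, K knockout). Knockout 3 is lowest for GABA genes (-0.50), Dlx factors (-0.55) and striatal markers (-0.56), is highest for cortical glutamatergic markers (0.23), and is near 0 over all genes.

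Markers of striatal projection neurons, which share a ventral origin and GABA synthesis with interneurons, were compared as the cell type nearest to these genes. All 11 of 11 tested markers had a log2 fold change below 0, beside 49% of all genes, with a median of -0.35. Of the 11, 7 had an unadjusted limma p below 0.05, beside 3.79% of all genes lower at that p, and 0 passed the adjusted threshold. Like the other lists, this one was chosen with earlier results of these data known, so these shares describe the list and do not test it. The list mean lay between 8.98 and 9.28 in wild type and between 8.54 and 8.93 in knockout arrays, so it did not overlap, and knockout 3 was lowest in 7 of the 11. Ppp1r1b, the phosphoprotein DARPP-32 (-0.48, SE 0.098, adjusted p = 0.0854), Tac1, the precursor of substance P (-0.75, SE 0.15, adjusted p = 0.0949), Penk, the enkephalin precursor (-0.47, SE 0.11, adjusted p = 0.178) and Ikzf1, a zinc finger factor (-0.37, SE 0.099, adjusted p = 0.331) had the smallest p. Over the alternatives Ppp1r1b passed in 4 of 19, Tac1 in 2 of 19, Penk in 1 of 18 and Ikzf1 in 1 of 18, with lowest adjusted p of 0.0040, 0.0085, 0.012 and 0.047. Without knockout 3 the list median was -0.27 with 11 of 11 below 0, while that of the Dlx factors was -0.068 and that of GABA synthesis and loading -0.057. The striatal median ran from -0.41 to -0.27 with 1 array left out, and from -0.39 to -0.15 under the other alternatives. The 9 tested markers of cortical glutamatergic neurons, by contrast, had a median of 0.027, with 4 below 0, although the median was -0.025 without knockout 3. Within that list Slc17a7, a vesicular glutamate transporter, was lower in every knockout than in every wild type array (-0.49, SE 0.13, unadjusted p = 0.0019, limma adjusted p = 0.358), a difference about as large as those of Ppp1r1b and Penk, and it passed in 0 of 19 alternatives. Which part these striatal levels have in the values of the interneuron genes was not tested.

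Other cell types that express some of the 29 genes were given the same description. Of all genes tested, 49% had a log2 fold change below 0. Oligodendrocyte lineage markers were below 0 in 6 of 6 (median -0.12), and astrocyte markers in 4 of 5 (-0.10, but -0.017 without wild type 1, 0.048 with the mean of probe sets and 0.027 under the 75th percentile filter). Endothelial markers were above 0 in 4 of 5 (0.046, from 0.0029 to 0.11 with 1 array left out and -0.015 with the mean of probe sets), those of pericytes and meninges in 4 of 5 (0.061, and -0.044 without knockout 3), and microglial markers in 2 of 3 tested (0.056). Choroid plexus markers were below 0 in 6 of 6 with a median of -0.28, which was -0.027 without knockout 2. None of these genes passed with limma, and their part in the values of the 29 genes was not tested.

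Of 27 other genes of interneuron development and migration, 18 were tested. Of these, 14 had a log2 fold change below 0 and 4 above, with a median of -0.098, beside 49% of all genes below 0. With limma, 0 of the 18 passed the adjusted threshold or an unadjusted p of 0.05. Of 24 genes of GABA breakdown, transport and reception, 18 were tested, 12 below 0 and 6 above (median -0.087, and 0.032 without wild type 1). Gabra2, a subunit of the GABA-A receptor, stood at 9.44, 9.30, 9.16 and 9.24 in wild type and at 10.20, 9.80, 9.81 and 9.73 in knockout arrays. Every knockout array lay above every wild type array, and the closest values, wild type 1 and knockout 4, were 9.44 and 9.73. Its log2 fold change was 0.60 (SE 0.11, limma adjusted p = 0.0523), which missed the threshold, and it passed in 9 of 19 alternatives, with values between 0.50 and 0.65 over all of them.

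Because Ptbp2 acts on splicing, single probe sets were compared as well, in level and relative to the rest of their gene (usage, limma diffSplice). The genome positions of probe sets were not used here, so a value belongs to a probe set and not to an exon. In level, 0 of 385 probe sets of the 29 genes passed, beside 0.0921% of all retained probe sets, and 20 of 385 had an unadjusted p below 0.05, beside 7.44%. In usage, 0 of 382 passed, beside 0.216% of all tested, and 14 had an unadjusted p below 0.05, beside 4.57%. With the splicing index, which takes each probe set minus its gene's median and gives it a variance of its own, 0 of 382 passed, beside 0.0107%, and 20 had an unadjusted p below 0.05, beside 5.28%. Relative to its gene, a probe set showed no overlap between groups in 13 of 382, beside 2.92%.

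Of the probe sets with the smallest usage p, that of Dlx5 (5067512) had a signal relative to the gene of -2.23, -2.77, -2.25 and -2.80 in wild type 1 to 4 and of -1.41, -1.87, -1.88 and -1.91 in knockout 1 to 4. It was the 1 of 11 Dlx5 probe sets that was higher in knockout cortex, and the relative signals did not overlap. The deviation was 0.62 (SE 0.16, diffSplice adjusted p = 0.0893), at levels of 7.17 ± 0.30 and 7.63 ± 0.38 (SD, n = 4 each) that lie near the signal filter. It passed without knockout 3 (0.70, adjusted p = 0.0268), with the replicate block (0.62, adjusted p = 0.0202) and without both arrays numbered 3 (0.75, adjusted p = 0.0195), and with 1 array left out its adjusted p ranged from 0.0268 (without knockout 3) to 0.8599 (without wild type 4). The splicing index gave it 0.75 at an adjusted p of 0.833.

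Nr2f2 probe set 4369894 had a relative signal of 0.49, 0.03, 0.05 and 0.27 in wild type and 0.08, -0.22, -0.33 and 0.07 in knockout arrays. The groups overlapped, with a deviation of -0.54 (SE 0.15, diffSplice adjusted p = 0.0930), and with 1 array left out the adjusted p ranged from 0.0407 (without wild type 2) to 0.871 (without knockout 3). The splicing index, the difference of the relative signals above, was -0.31 at an adjusted p of 0.921. In Erbb4, a receptor known for alternative exons, probe set 4507780 was at -2.07, -1.44, -2.08 and -2.16 relative to the gene in wild type and between -1.47 and -1.42 in knockout arrays. Wild type 2 lay at the knockout level and the other wild type arrays well below it (deviation 0.44, adjusted p = 0.487). Probe sets of Dlx2 (5497185, -0.33), Etv1 (5344100, 0.32) and Vip (4769109, -0.62) did not overlap in relative signal but had adjusted p between 0.670 and 0.773.

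**Figure D4:**
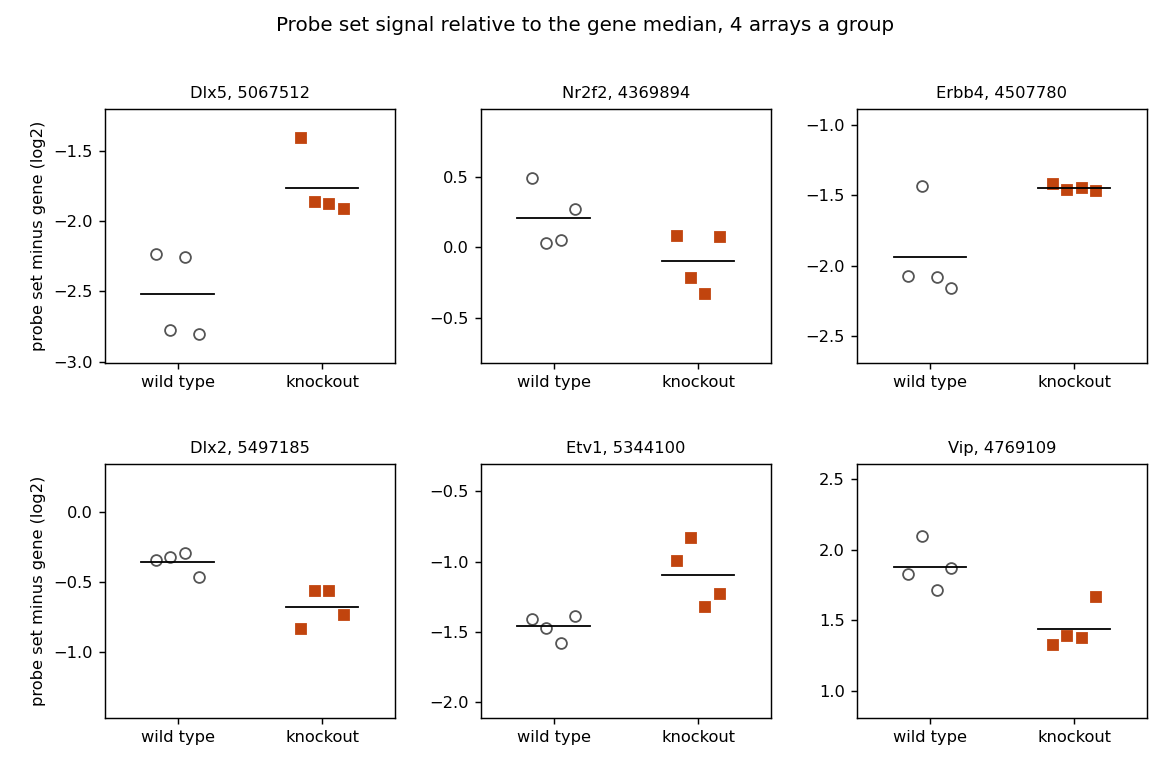
Signal of the 6 probe sets with the smallest usage p, minus the level of their gene on the same array (log2), in 4 wild type (circles) and 4 knockout arrays (squares), with the group mean as a line. Dlx5, Dlx2, Etv1 and Vip separate the groups, while Nr2f2 and Erbb4 overlap; none passed the adjusted threshold with all arrays.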

How the data were processed

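RNA from embryonic cortex was measured on Affymetrix mouse exon arrays, 4 wild type and 4 Ptbp2 knockout. The values deposited by the authors are log2 signals per probe set. The tools named, per the submitters' processing notes, are RMA and Affymetrix Expression Console, and the build is mm9 (versions: not given in the sources used here). Quantile normalization is a step of RMA, which removes differences in total RNA, and low signals are compressed. Nothing in the labels says how RNA extractions or scans were batched.

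Of 625534 probe sets, 303629 had 1 gene symbol, 5892 several and 316013 none; probe sets with several were not named. Of 21634 symbols, 17657 were current in RefSeq GRCm38.p6 and 3919 were updated through synonyms. Probe sets with a mean of at least the median (6.84; 312767) and genes with at least 4 of them (12960) entered a 2-group fit without covariates (lmFit, then eBayes; limma 3.58.1, R 4.3.3), and p-values were adjusted after Benjamini-Hochberg over the whole table, with a threshold of 0.05. Adjusted p-values in the text are limma's unless diffSplice or the splicing index is named. Usage was tested with diffSplice on 195622 probe sets, Ptbp2 included. Intervals are 95%. Single genes also had an exact permutation test over the 70 splits into groups of 4. The fits were also run on simulated arrays with known changes and with noise drawn separately for each probe set. Noise that the probe sets of a gene share on an array was absent there, so recovery in the real arrays was not measured. The number of arrays limits the precision.

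All 29 genes are reported. Every array is given for the 8 with the smallest p, for Gad1, Gad2, Slc32a1, Lhx6 and Sst, and for genes whose groups did not overlap, and also for Dlx1, Dlx6, Lhx8 and Nkx2-1, which were chosen after their values were seen. Without a usage call, the 6 probe sets with the smallest usage p are named, and up to 4 genes of each other list. The genes, lists and motifs were chosen with earlier results of these data known. Listed genes without a named probe set were not analysed here. The fits were repeated without each array in turn, with a replicate block, with the signal filter removed or set at the 75th percentile, after cyclic loess or quantile normalization, with Xist as a covariate, with array weights, with a trended and robust eBayes, with the mean in place of the median of probe sets, with 1 probe set as the minimum, and with the splicing index; leaving out both arrays numbered 3 was added after the data were seen.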

Additional observations from a re-analysis of the deposited data

Results flagged for a closer look

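In Gad1, knockout 3 was at 9.97, far below the other knockout arrays (10.33 to 10.37) for the spread of its group. In Lhx8, knockout 3 was at 7.94, with the other knockout arrays between 8.96 and 9.05. In Nr2f2, wild type 4 was at 9.35, above the other wild type arrays (9.23 to 9.25). These 3 came from 56 groups of 4 arrays examined with Dixon's ratio (28 genes, 2 groups each), where chance alone flags about 1 in 20.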

How the results depend on the processing

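No tested gene of the 28 and none of their single probe sets passed in level under any alternative run. The median over those of the 28 that were tested stayed between -0.12 and -0.050. At the 75th percentile filter not all of the 28 were still tested, and the median over the remaining genes was -0.056. In usage 1 probe set passed with the replicate block (Dlx5 5067512), 1 with no signal filter (Satb1 5126041), 2 without both arrays numbered 3 (Dlx5 5067512 and Gad2 5027410), and 0 to 1 with 1 array left out. The count over all genes, 15, was 7 with no filter, 25 at the 75th percentile, 24 with quantile normalization, 71 with array weights, 37 with the mean of probe sets, 5 with a minimum of 1 probe set, 9 without both arrays numbered 3, and 7 to 15 with 1 array left out; the cause was not tested. Signs of values near 0 turned as follows. Under array weights Gad1 was at 0.019, Htr3a at -0.047, Sox6 at 0.015 and Zeb2 at -0.055. Without both arrays numbered 3, Gad1 was at 0.014, Htr3a at -0.057, Npas1 at -0.061 and Sox6 at 0.034. With the mean of probe sets Nr2f2 was at 0.066 and Prox1 at -0.015, the Prox1 log2 fold change was -0.00137 with quantile normalization and -0.00715 with cyclic loess, which put Htr3a at -0.0015. Maf was at 0.0074 with no filter and Satb1 at -0.0026 at the 75th percentile. With 1 array left out the ranges were -0.22 to 0.032 for Cxcr4, -0.23 to 0.0045 for Dlx6, -0.082 to 0.058 for Gad1, -0.059 to 0.13 for Htr3a, -0.064 to 0.063 for Maf, -0.021 to 0.098 for Npas1, -0.080 to 0.10 for Prox1, -0.0027 to 0.099 for Satb1, -0.12 to 0.016 for Sox6 and -0.048 to 0.12 for Vip. The labels state no pairing of replicate numbers, so the numbers were not taken as pairs. The deviations of same-numbered arrays correlated at 0.25, -0.0039, 0.033 and 0.17. The best knockout partner of wild type 1 and 4 had the same number, while that of wild type 2 was knockout 3 and that of wild type 3 was knockout 2. These values do not settle whether the arrays were paired. With the replicate block the count over all genes was 22. Probe sets near the signal filter, as in Vip and Nkx2-1, limit what a difference there can show.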
